A study of Homo sapiens with 6 samples.

Results

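The tubulins described here are 10 genes of the alpha, beta and gamma families, TUBA1A, TUBA1B, TUBA1C, TUBA4A, TUBB, TUBB2A, TUBB3, TUBB4B, TUBB6 and TUBG1. They were listed by name as genes of one family, out of the 36884 genes in the deposited count table, with earlier results of these data known. They are not the whole family, and 12 further tubulin genes are described below as a list of their own. A symbol that stood on several rows of the table was represented by the row with the highest mean count. This applied to TUBB alone, with 8 rows of which 1 held counts. All 10 passed the filter on low counts and were among the 13431 genes tested.

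The RNA came from RPE1, a human line that was immortalized from the pigment epithelium of the retina and is not transformed. In the cells of both groups LATS1 and LATS2, the Hippo pathway kinases that restrain the coactivators YAP and TAZ, had been inactivated by CRISPR-Cas9. There were 3 libraries from cells given control siRNA (siCon) and 3 from cells given siRNA against MK5 (siMK5), all at 48 h after transfection. MK5, encoded by MAPKAPK5, is a protein kinase of the MAP kinase-activated family, and the comparison asks how transcripts differ when it is depleted in cells without LATS1 and LATS2. Cells with intact LATS genes, a rescue of MK5 and the siRNA sequences were not analysed here, and how many clones or siRNAs were used is not given in the sources used here.

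Microtubules are polymers of heterodimers, each of an alpha-tubulin and a beta-tubulin, and several genes of each family (isotypes) encode closely similar proteins. Gamma-tubulin does not enter the polymer wall but forms a ring complex, mainly at the centrosome, from which microtubules grow. Cells also tune tubulin mRNA to the amount of unpolymerized dimer: the protein TTC5 recognises the first residues of a nascent alpha- or beta-tubulin on the ribosome, and the mRNA being translated is then degraded.

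That signal is written in the first 4 codons, so the start of each coding sequence is shown first, because it shows which of these transcripts carry the alpha form, the beta form or neither. The 24 bases from the start codon were read from the principal GENCODE 29 transcript of each gene, with the first 4 codons in capitals, 5′ to 3′.
TUBA1A, TUBA1B and TUBA1C: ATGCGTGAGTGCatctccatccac
TUBA4A: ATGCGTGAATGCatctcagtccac
TUBB: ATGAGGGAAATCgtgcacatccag
TUBB4B: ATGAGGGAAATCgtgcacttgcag
TUBB3 and TUBB6: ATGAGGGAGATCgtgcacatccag
TUBB2A: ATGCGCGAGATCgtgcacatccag
TUBG1: ATGCCGAGGGAAatcatcacccta

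Over the 12 bases in capitals, TUBB4B was identical to TUBB, TUBB3 and TUBB6 differed from it at 1 base, and TUBB2A at 3. The alpha genes TUBA1A, TUBA1B and TUBA1C, identical to one another over all 24 bases, differed from TUBB at 5 and TUBA4A at 4. The gamma gene TUBG1 differed at 8. Translated, these codons read MREI in every beta gene listed, MREC in every alpha gene listed and MPRE in TUBG1. The base differences within the alpha genes and within the beta genes therefore leave these residues unchanged.

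Libraries held between 27188074 and 28236773 counts. MAPKAPK5 stood at 35.6, 29.1 and 31.3 CPM (counts relative to the TMM-scaled library total) in control replicates 1 to 3 and at 17.4, 14.1 and 16.2 CPM in MK5 siRNA replicates 1 to 3. Its log2 fold change of −1.01 ± 0.14 (SE, n = 3 libraries per group) passed the edgeR quasi-likelihood test with an adjusted p of 0.00169. Control replicate 1 stood apart from control replicates 2 and 3 in its counts over all tested genes. The chi-square per degree of freedom was 160 and 165, against 6.29 between replicates 2 and 3. Replicate 1 stood apart in the MK5 siRNA group too, though less, with 27.9 and 33.7 against 4.18 between replicates 2 and 3. The epithelial keratin gene KRT8 was the highest of 11 pigment epithelium and epithelial markers (642 CPM in controls), 6 of which lay under 1 CPM, EPCAM being at 0. Their summed level was 841 to 922 CPM in controls and 445 to 639 CPM with MK5 siRNA, and its part in the tubulin values was not tested. Most of that sum came from KRT8 and KRT18, with control means of 642 and 148 CPM. Other markers were named after their values were seen. RPE65, RLBP1 and TYR had at most 2 counts in any library. MITF fell from 54.1 to 25.3 CPM and PMEL from 2.04 to 0.546 CPM, while OTX2 (32.4 and 34.8 CPM) did not pass. Blood and endothelial markers summed to at most 0.575 CPM in any library, with HBB and PECAM1 at 0. In such bulk libraries fewer cells of a type and less RNA per cell cannot be told apart.

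Most of the 10 tubulin transcripts were lower after MK5 siRNA. By edgeR's test, with Benjamini-Hochberg adjustment over all tested genes and a threshold of 0.05, 7 of the 10 genes fell and 3 did not pass. The 7 were TUBB4B, TUBA1B, TUBA1A, TUBB6, TUBA1C, TUBG1 and TUBB, with falls of between 1.65-fold and 3.44-fold. The comparison changed much of the transcriptome: of all tested genes 46.2% passed, 23.7% lower and 22.5% higher. The median log2 fold change of the 10 tubulins was −0.93, against 0.00 over all tested genes and −0.98 over the 3186 genes that fell. None of the 10 rose: all 10 log2 fold changes were below 0, those of TUBA4A (−0.01) and TUBB3 (−0.04) only slightly. DESeq2 and limma-voom also found 7 lower and 0 higher. Of 7 further tubulin genes tested, described below, 1 fell and 2 rose. The same 7 genes had every MK5 siRNA library below every control library, which 29.8% of all tested genes showed, while 30.6% showed the opposite order. In the table as a whole, falls larger than that of TUBB4B were seen in 3.70% of tested genes and falls larger than that of TUBB in 19.2%.

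**Figure D1:**
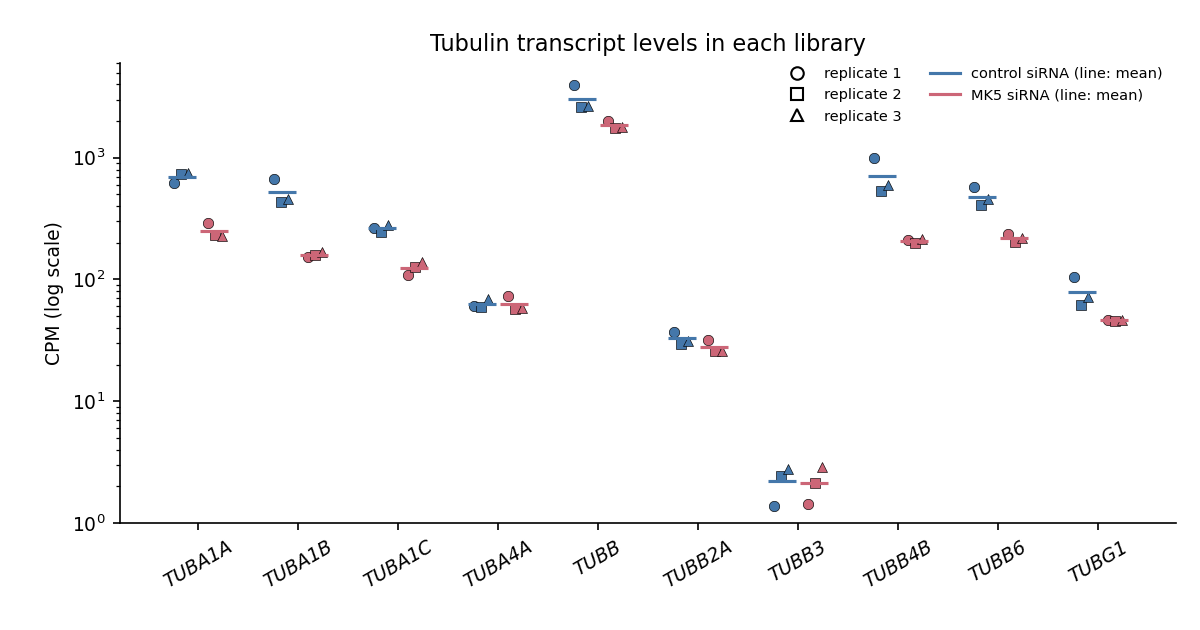
Level of each tubulin transcript in CPM on a log axis, with 1 point per library and a line at the mean of each group. In 7 of the 10 genes the MK5 siRNA points lie below all control points, and in TUBA4A, TUBB2A and TUBB3 the groups overlap.

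Among the alpha-tubulins, the 3 genes that share their first 24 coding bases fell and TUBA4A did not pass. TUBA1B, an isotype made in most tissues, was at 668, 436 and 459 CPM in control replicates 1 to 3 and at 152, 158 and 167 CPM in the MK5 siRNA replicates. Every MK5 siRNA library was far below the lowest control, and the control replicates were the more scattered group, replicate 1 being the highest. The mean went from 521 ± 128 CPM (SD, n = 3) to 159 ± 7.63 CPM, 3.27-fold lower. Its log2 fold change was −1.71 ± 0.18 (SE), with an edgeR adjusted p of 0.000678.

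TUBA1A, the alpha isotype known for its role in developing neurons and also made by dividing cell lines, was at 617, 736 and 749.7 CPM in controls. With MK5 siRNA it was at 289.6, 230.4 and 229.6 CPM. Here control replicate 1 was the lowest control and MK5 siRNA replicate 1 the highest of its group, the reverse of their places for TUBA1B, and the groups stayed apart. The mean of 701 ± 72.9 CPM (SD, n = 3) became 249.8 ± 34.4 CPM, which is 2.81-fold lower, with a log2 fold change of −1.49 ± 0.14 (SE) and an edgeR adjusted p of 0.000488. The change within replicate pairs was −1.09, −1.67 and −1.71 on the log2(CPM + 0.5) scale.

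TUBA1C, another broadly made alpha isotype, had 267, 244 and 282 CPM in controls and 109, 127 and 138 CPM with MK5 siRNA. The libraries of each group were close together and the groups were apart. Its mean fell from 264 ± 18.8 to 125 ± 14.6 CPM (SD, n = 3), 2.12-fold, with a log2 fold change of −1.08 ± 0.12 (SE) and an edgeR adjusted p of 0.000883.

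TUBA4A, an alpha isotype whose protein is made without the terminal tyrosine of the others, stood at 60.7, 59.8 and 68.8 CPM in controls. With MK5 siRNA it stood at 73.2, 56.8 and 58.4 CPM. The groups overlapped, and the highest and the lowest of the 6 libraries were both MK5 siRNA libraries. Its log2 fold change was −0.01 ± 0.13 (SE), with a 95% confidence interval from −0.32 to 0.31 and an edgeR adjusted p of 0.969, so a change of either sign within that interval was not detectable. Scaling by library totals alone turned the estimate to 0.09, and the same scaling moved the median of all tested genes to 0.10.

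Of the 5 beta-tubulins, 3 fell. TUBB4B, a broadly made beta isotype that is also used in cilia, showed the lowest fold change of the 10 genes. It was at 1001, 536 and 601 CPM in control replicates 1 to 3 and at 209, 198 and 215 CPM with MK5 siRNA. Control replicate 1 was well above the other controls, and the MK5 siRNA libraries lay close together far below all of them. The mean went from 712 ± 252 to 207 ± 8.65 CPM (SD, n = 3), 3.44-fold lower, with a log2 fold change of −1.78 ± 0.24 (SE) and an edgeR adjusted p of 0.00155. The pair changes were −2.26, −1.44 and −1.48, and without control replicate 1 or without replicate 1 of both groups TUBB4B still passed.

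TUBB6, a divergent beta isotype found in many non-neuronal cells, had 570.5, 411 and 458 CPM in controls and 234, 203 and 221 CPM with MK5 siRNA. The groups did not overlap and replicate 1 was highest in both. Its mean of 479.9 ± 82.0 CPM (SD, n = 3) became 219.5 ± 15.5 CPM, 2.19-fold lower, with a log2 fold change of −1.13 ± 0.15 (SE) and an edgeR adjusted p of 0.00136.

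TUBB, the main beta-tubulin of dividing cells, was the most abundant of the 10 transcripts in each library. Controls held 3934, 2586 and 2636 CPM and MK5 siRNA libraries 2013, 1743 and 1798 CPM. The groups were apart, with control replicate 1 far above the other controls. The mean went from 3052 ± 764 to 1852 ± 143 CPM (SD, n = 3), 1.65-fold lower, and the log2 fold change of −0.72 ± 0.19 (SE) had an edgeR adjusted p of 0.0180. That call did not hold when MK5 siRNA replicate 2 or 3 was left out, with edgeR adjusted p values of 0.0747 and 0.0690. Without control replicate 1 the log2 fold change was −0.49, with an edgeR adjusted p of 0.00126.

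TUBB2A, a beta isotype best known from neurons, was far lower, at 37.2, 29.6 and 31.4 CPM in controls and 32.0, 25.6 and 26.0 CPM with MK5 siRNA. MK5 siRNA replicate 1 lay among the controls, so the groups overlapped. Within every replicate pair the MK5 siRNA library was the lower, by −0.21, −0.20 and −0.27 on the log2(CPM + 0.5) scale. The log2 fold change was −0.23 ± 0.15 (SE; 95% interval −0.58 to 0.11), and the edgeR adjusted p of 0.231 did not pass. Without replicate 1 of both groups, a log2 fold change of −0.24 passed with an edgeR adjusted p of 0.0109. With those fewer libraries 75.8% of all tested genes passed.

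TUBB3, the beta isotype widely used as a neuron marker, was the scarcest. Its counts were 36, 66 and 76 in controls and 39, 61 and 85 with MK5 siRNA, or 1.38, 2.43 and 2.78 CPM against 1.42, 2.12 and 2.86 CPM. Replicate 1 was the lowest of each group and the groups overlapped almost entirely. The log2 fold change of −0.04 ± 0.37 (SE; 95% interval −0.91 to 0.83; edgeR adjusted p = 0.934) did not pass, and at these counts changes within that interval were not detectable. Its sign turned with scaling by library totals alone (0.06). Of 9 neuron markers in the table, 7 lay under 1 CPM, and ELAVL4, DCX, NEFM and STMN2 were at 0. Their summed level was 41.5 to 52.8 CPM in controls and 36.9 to 37.8 CPM with MK5 siRNA, most of it from MAP2, the highest of them, which went from a mean of 44.8 to 29.9 CPM. SNAP25, a synaptic gene named after its value was seen, went the other way, from 1.24 to 6.83 CPM (log2 fold change 2.45, edgeR adjusted p = 0.000938).

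TUBG1, the main gamma-tubulin gene, was at 104, 61.2 and 71.7 CPM in control replicates 1 to 3 and at 46.3, 45.5 and 46.7 CPM with MK5 siRNA. The MK5 siRNA libraries were almost level and all below the lowest control, and control replicate 1 was the highest. Its mean went from 79.1 ± 22.5 to 46.2 ± 0.588 CPM (SD, n = 3), 1.71-fold lower, with a log2 fold change of −0.78 ± 0.20 (SE) and an edgeR adjusted p of 0.0172. Leaving out any single MK5 siRNA library lost the call, with edgeR adjusted p values of 0.0603, 0.0661 and 0.0605 without replicates 1, 2 and 3. Without control replicate 1 the log2 fold change was −0.52, with an edgeR adjusted p of 0.00121.

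**Figure D2:**
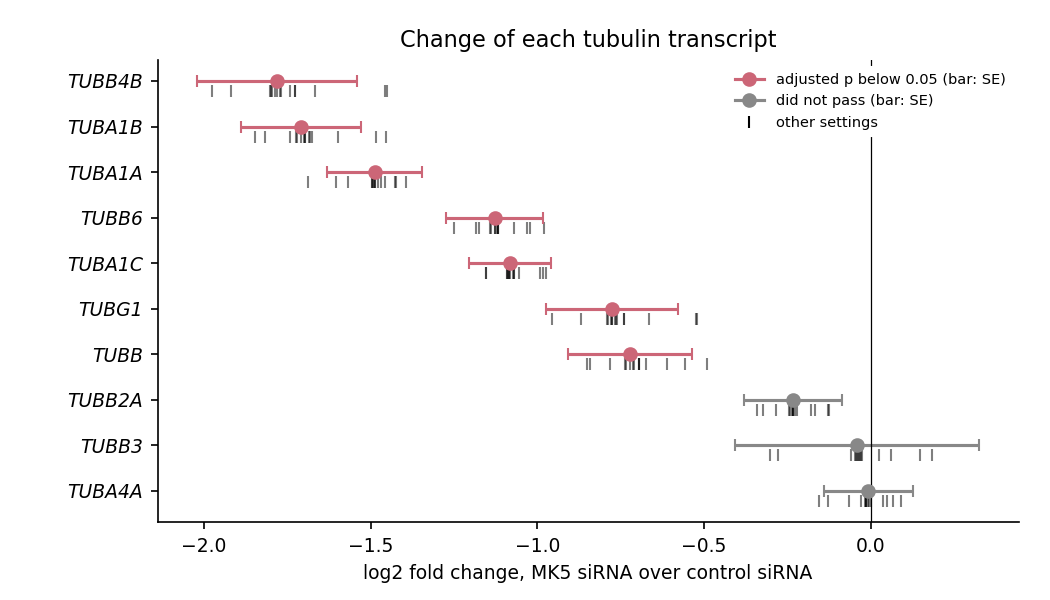
Log2 fold change (MK5 siRNA over control siRNA) of each tubulin gene from edgeR with its SE, with ticks for the same value under the other settings. All ticks of the 7 genes that fell lie below 0, and those of TUBA4A and TUBB3 lie on both sides of it.

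Several of these genes share sequence, which bounds how well reads of one can be told from those of another. Of the 50-base words in the principal transcript, TUBA1B shared 62.7% with transcripts of other tubulin genes or pseudogenes, TUBA1A 51.8%, TUBA1C 25.1% and TUBB2A 65.5%. TUBB6 shared only 0.993%, TUBB4B 9.89%, TUBB 18.2% and TUBG1 29.9%, nearly all of the last with its paralog. Which gene a read came from is therefore uncertain in part for TUBA1A, TUBA1B, TUBA1C, TUBB2A, TUBG1 and, to a lesser degree, TUBB and TUBB4B, whereas the fall of TUBB6 was measured on a transcript with little shared sequence. In GENCODE 29, 89.4% of the words of TUBB3 also lay in an overlapping annotated locus, 68.7% of those of TUBA1B in an antisense one, and 27.4% of those of TUBA4A in its neighbour STK16. The loci overlapping TUBB3 and TUBA1B have no row in the deposited count table, whereas STK16 has. With only genes in that table, the shared words were 8.90% for TUBB3, 62.7% for TUBA1B and 32.6% for TUBA4A. How the counting treated strand and reads with several matches is not given in the sources used here. Few reads were counted to pseudogenes: the 41 tubulin pseudogene rows summed to between 0.766 and 1.46 CPM per library. Reads with several matches may have been left uncounted, so these sums do not show how many reads matched pseudogenes.

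On the scale of CPM per kilobase of the principal transcript, which allows for transcript length only, TUBB was first in controls at 1143 ± 286 (SD, n = 3). Reads lost or moved between genes through shared sequence are not corrected for, so comparisons between genes on this scale are approximate. The same holds for the sums, isotype shares and alpha-to-beta ratio below. TUBB4B (435), TUBA1A (366) and TUBA1B (320) followed, with library values that overlapped between neighbours. Then came TUBB6 at 232.5, which overlapped TUBA1B, and below it, with no overlap between neighbours, TUBA1C at 88.1, TUBG1 at 49.1, TUBA4A at 29.2, TUBB2A at 20.5 and TUBB3 at 1.24. With MK5 siRNA, TUBB stayed first at 693.5 ± 53.5 per kilobase. TUBA1A (130.5), TUBB4B (127), TUBB6 (106) and TUBA1B (97.9) stood next, while TUBA4A (29.04) and TUBG1 (28.7) stood side by side. Places in the middle of the order were not settled in either group. TUBA1A and TUBB4B exchanged places between libraries of 1 group, TUBA1A being the higher in control replicates 2 and 3 and in MK5 siRNA replicate 1. TUBB6 and TUBA1B overlapped in both groups.

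The alpha-tubulin transcripts together had 849.7, 761 and 799.5 CPM per kilobase in controls and 315, 286 and 296 with MK5 siRNA. The sum of the beta-tubulins was 2385, 1515 and 1598 in controls and 1016, 889.5 and 929 with MK5 siRNA. In both sums the groups were apart, with lower means after MK5 siRNA by 2.69-fold for alpha and 1.94-fold for beta between means. All 10 genes together took 0.671%, 0.502% and 0.529% of the counts in control replicates 1 to 3, and 0.315%, 0.295% and 0.306% with MK5 siRNA. No test was made of these sums. Without TUBB, the most abundant member, the log2 ratio of the summed level of all members was −1.41 in place of −1.08.

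The make-up of each family shifted along with its level. TUBB made 61.8%, 64.0% and 61.8% of the beta-tubulin level per kilobase in controls and 74.2%, 73.4% and 72.5% with MK5 siRNA. TUBB4B made 25.6%, 21.6% and 23.0% in controls and 12.6%, 13.6% and 14.1% with MK5 siRNA. The groups were apart in both, and the ratio of TUBB to TUBB4B was 2.41 to 2.96 in controls and 5.13 to 5.90 with MK5 siRNA. On the alpha side TUBA4A, which did not pass, went from 3.30%, 3.63% and 3.98% of the alpha level to 10.7%, 9.18% and 9.13%. TUBA1A made 37.9%, 50.5% and 49.0% in controls and 48.0%, 42.0% and 40.5% with MK5 siRNA, which overlap, while TUBA1B was at 48.3%, 35.2% and 35.3% against 29.7%, 34.0% and 34.8%. The ratio of the alpha to the beta sum was 0.356, 0.503 and 0.50 in controls and 0.310, 0.322 and 0.318 with MK5 siRNA, control replicate 1 lying between the other controls and the MK5 siRNA libraries.

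**Figure D3:**
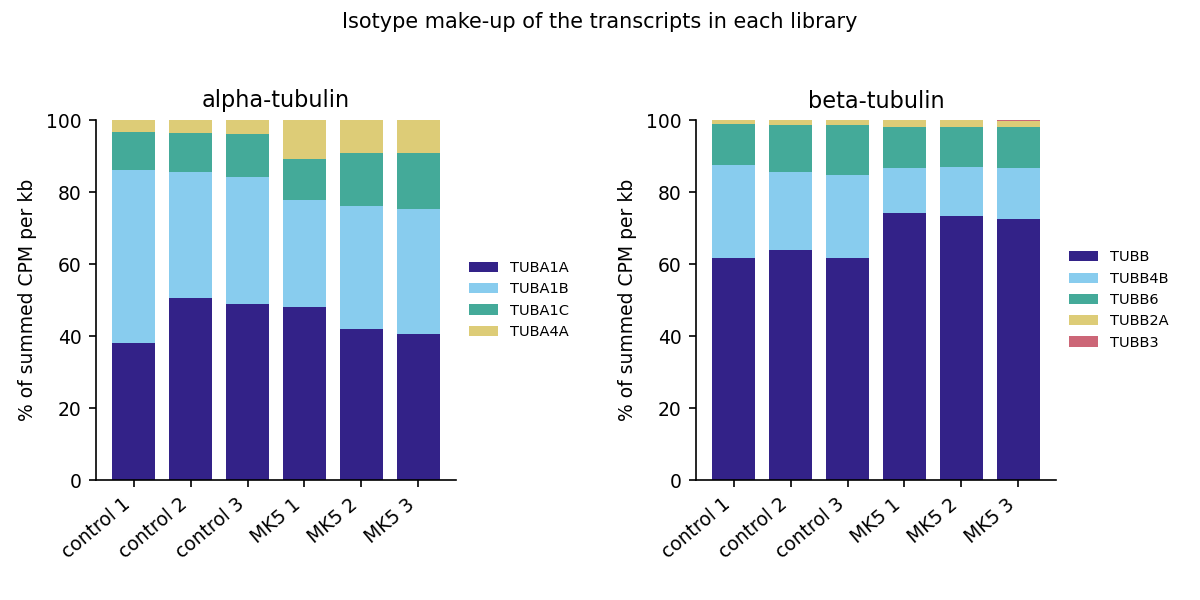
Share of each isotype in the summed alpha-tubulin (left) or beta-tubulin (right) level per kilobase, in percent, with 1 stacked bar per library. TUBB takes 61.8% to 64.0% of the beta level in controls and 72.5% to 74.2% with MK5 siRNA, and TUBB4B takes 12.6% to 14.1% in place of 21.6% to 25.6%, while TUBB3 is too scarce to see in most bars.

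Because 7 members were lower together, the promoters were searched for 5 short words, and the windows are shown for genes that fell. RefSeq promoters on GRCh38.p14, from 250 bases before to 50 after each annotated start, matched all 10 genes by symbol with 15 promoters. The word CCAAT, on either strand, stood in 9 of the 15, against 34.6% of 35116 promoters, and in at least 1 promoter of 7 of the 10 genes, against 39.7% of all genes. These were TUBA1A, TUBA1C, TUBB, TUBB3, TUBB4B, TUBB6 and TUBG1, of which all but TUBB3 fell, while TUBA1B fell with none in the window. Promoters 1, 2 and 3 of TUBA1C are among the 9 promoters, and its overlapping promoters 1 and 2 share the same CCAAT site. Each window below is 27 bases on the gene's strand, with the word in capitals as CCAAT or, on the other strand, ATTGG.
TUBB4B, chr9:137241110-137241136, plus strand: gctgcggctgaCCAATaaagaccaaac
TUBB4B, chr9:137241173-137241199, plus strand: cgggggcaaggCCAATcaaacgaggga
TUBA1A, chr12:49189190-49189216, minus strand: cgtcgcttgcaCCAATcaccagtctcc
TUBA1C, chr12:49264911-49264937, plus strand: ttttgaatccgCCAATcagcgccgcgc
TUBB, chr6:30720176-30720202, plus strand: tggctcagaggCCAATggacgcctggt
TUBB6, chr18:12308162-12308188, plus strand: ggcccgcagccATTGGcgagcggcggg
TUBG1, chr17:42609605-42609631, plus strand: actcgattctcATTGGagcggaggaag

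Positions of these words relative to the annotated start were −166 and −103 for TUBB4B, −125 for TUBA1A, −160 for TUBA1C, −165 for TUBB, −68 for TUBB6 and −67 for TUBG1. Not shown are further matches at −232 in TUBB4B and, on the other strand, at −88 in TUBA1A. TUBA1C held another match too, 1 site at −104 and −197 from 2 annotated starts. CCAAT boxes are known as binding sites of the factor NF-Y. The word TTTGAA, which occurs in the CHR element of many cell cycle genes, stood in promoters of TUBA1C and TUBB4B (2 of 10 genes, against 18.2% of all genes, and 4 of 15 promoters, against 15.2% of all, 3 of them promoters of TUBA1C). GGAATG, the core of TEAD sites through which YAP and TAZ act, stood in TUBB4B and TUBB6 (2 of 10 genes, against 16.7% of all genes, and 2 of 15 promoters, against 14.0% of all). GGCGGGAA, an E2F word, stood in 0 of 15, against 3.16% of all promoters, and the AP-1 word TGANTCA in 1, a TUBB3 promoter, against 7.71%. No word contains another. A match describes letters only, and no binding was measured here.

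The other genes of tubulin folding, turnover, nucleation, modification and binding were read from the same fit. Of 104 such genes tested, 29 fell and 16 rose. The 45 that passed were 43.3% of the 104, near the 46.2% of all tested genes. Without control replicate 1 this count was 69 of 105 (41 fell, 28 rose), or 65.7%, when 64.4% of all tested genes passed. Without replicate 1 of both groups it was 80 of 105, or 76.2%, when 75.8% of all tested genes passed.

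Newly made tubulin is folded by the CCT chaperonin, to which prefoldin delivers it, and by the tubulin cofactors. Of 20 genes of this route 10 fell, against 23.7% of all tested genes, and 0 rose. At an unadjusted p below 0.05 edgeR had 11 lower and 0 higher, DESeq2 called 11 lower and 0 higher, and limma-voom 10 and 0. Their median log2 fold change was −0.37, and 16 had groups apart with MK5 siRNA lower, as did 29.8% of all tested genes. CCT subunit genes made up most of it, with 7 of 8 falling. CCT2 was at 382, 330.4 and 352 CPM in controls and 164, 152 and 161 CPM with MK5 siRNA, and its log2 fold change was −1.16 ± 0.10 (SE; edgeR adjusted p = 0.000395). The changes of CCT5 and TCP1 were −0.70 ± 0.12 (SE; edgeR adjusted p = 0.00409) and −0.62 ± 0.15 (SE; edgeR adjusted p = 0.0133), but TCP1 missed the threshold when MK5 siRNA replicate 1 or 3 was left out, with edgeR adjusted p values of 0.0530 and 0.0540. Of 6 prefoldin genes only PFDN1 fell, at 120, 101 and 108 CPM in controls against 41.2, 40.4 and 41.7 CPM, with a log2 fold change of −1.41 ± 0.11 (SE; edgeR adjusted p = 0.000248). Of the 6 cofactor genes, ARL2 included, 2 fell. Without MK5 siRNA replicate 2, 6 of the 20 fell and 0 rose, when 2103 of all 13677 tested genes fell and 2064 rose. In either direction that was 30% against 30.5%. Without control replicate 1, 11 fell and 2 rose, when 4419 of 13774 fell and 4455 rose (65% against 64.4% in either direction). Without replicate 1 of both groups 13 fell and 2 rose, when 5177 of 13690 fell and 5195 rose (75% against 75.8% in either direction).

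Of 12 genes of the autoregulation route, the recognition factors and the CCR4-NOT deadenylase, 3 fell and 1 rose, or 33.3% against 46.2% of all tested genes, with a median of −0.07. The deadenylase genes CNOT6 and CNOT6L, paralogs that encode alternative catalytic subunits, went opposite ways. CNOT6 was at 129, 90.2 and 81.0 CPM in controls and 55.7, 49.1 and 49.9 CPM with MK5 siRNA (log2 fold change −0.96 ± 0.19 SE, edgeR adjusted p = 0.00605). CNOT6L was at 55.3, 35.7 and 31.0 CPM in controls and 79.4, 76.4 and 77.4 CPM with MK5 siRNA (0.93 ± 0.21 SE, edgeR adjusted p = 0.0115). The other catalytic subunit gene that fell was CNOT7, by 0.52 ± 0.10 (SE; edgeR adjusted p = 0.00644), and the scaffold gene CNOT1 fell by 0.46 ± 0.12 (SE; edgeR adjusted p = 0.0190), a call lost when any 1 MK5 siRNA library was left out (edgeR adjusted p 0.0625 to 0.0761). TTC5, named after its value was seen because it reads the tubulin start, was at 22.8, 23.1 and 22.3 CPM in controls and 19.5, 22.8 and 21.4 CPM with MK5 siRNA. Its log2 fold change of −0.10 ± 0.12 (SE; 95% interval −0.37 to 0.18) did not pass (edgeR adjusted p = 0.520). Without replicate 1 of both groups 8 genes of the route passed, or 66.7%, when 75.8% of all tested genes did.

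Around gamma-tubulin, 2 of 9 measured genes of the ring complex and its anchors fell, against 23.7% of all tested genes, and 0 rose, with a median of −0.09. At an unadjusted p below 0.05 edgeR had 1 higher, and DESeq2 called 1 higher. NEDD1, which anchors the ring complex at the centrosome, was at 82.2, 57.7 and 51.8 CPM in controls and 31.3, 29.4 and 26.7 CPM with MK5 siRNA. Its log2 fold change was −1.13 ± 0.19 (SE; edgeR adjusted p = 0.00335). The ring subunit gene TUBGCP4 was at 60.8, 32.5 and 32.4 CPM in controls and 24.3, 23.5 and 22.4 CPM with MK5 siRNA (−0.84 ± 0.26 SE, edgeR adjusted p = 0.0332). Like that of TUBG1, its call was lost when any 1 MK5 siRNA library was left out. Then 1 gene of the complex passed, or 11.1%, when 30.5% to 37.1% of all tested genes did. Leaving out control replicate 1 moved TUBGCP4 to −0.47 on the log2 scale (edgeR adjusted p = 0.00195). Without replicate 1 of both groups, 6 passed, or 66.7%, when 75.8% of all tested genes did.

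Of 12 further tubulin genes 7 were tested, of which 1 fell, 2 rose and 4 did not pass. Those passing were 42.9% of the 7, near the 46.2% of all tested genes. TUBAL3, a little-studied alpha-like gene, rose from 0.138 to 0.709 CPM on 2 to 23 counts per library (log2 fold change 2.34 ± 0.50 SE, edgeR adjusted p = 0.00868). TUBE1, the centriolar epsilon-tubulin, was at 12.5, 5.53 and 5.67 CPM in controls and 14.2, 16.1 and 16.7 CPM with MK5 siRNA, so pair 1 hardly moved (0.19) and pairs 2 and 3 did (1.46 and 1.48). Its change of 0.99 ± 0.33 (SE; edgeR adjusted p = 0.0442) was lost with the replicate number as a block (edgeR adjusted p = 0.0528) and when any 1 library other than control replicate 1 was left out. Without control replicate 1 it was 1.49 (edgeR adjusted p = 5.4e-05). TUBB4A, a neuronal beta isotype, was at 2.18, 2.91 and 3.51 CPM in controls and 1.57, 1.43 and 1.95 CPM with MK5 siRNA (−0.80 ± 0.27 SE, edgeR adjusted p = 0.0451). That call was lost with other scalings (edgeR adjusted p 0.0825 by library totals and 0.0504 by upper quartile), with no filter (0.0595) and without 5 of the 6 libraries in turn. Leaving out libraries in turn, or replicate 1 of both groups, 1 to 4 of these genes passed. That was 14.3% to 57.1% of them, when 30.5% to 75.8% of all tested genes passed.

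Of 18 tested enzymes that modify tubulin after folding, 2 fell and 5 rose, with a median of −0.03. The 7 were 38.9% of the list, below the 46.2% of all tested genes. TTLL12, a member of the tubulin tyrosine ligase-like family, was at 68.3, 75.1 and 85.0 CPM in controls and 23.5, 21.9 and 18.6 CPM with MK5 siRNA (−1.84 ± 0.14 SE, edgeR adjusted p = 0.000267). VASH1, a carboxypeptidase that removes the terminal tyrosine of alpha-tubulin, rose from 5.14 ± 0.774 to 16.0 ± 2.44 CPM (SD, n = 3; 1.64 ± 0.19 SE, edgeR adjusted p = 0.000942). The polyglutamylase gene TTLL11 and the deacetylase gene SIRT2 rose as well, by 1.42 ± 0.27 (SE; edgeR adjusted p = 0.00531) and 1.15 ± 0.17 (SE; edgeR adjusted p = 0.00224). Without control replicate 1, 15 of these enzymes passed, or 83.3%, when 64.4% of all tested genes did.

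Regulators of microtubule dynamics and severing held 7 of 20 lower and 3 higher, or 50% passing against 46.2% of all tested genes, with a median of −0.44. STMN1, whose product stathmin binds free tubulin dimers, was at 652, 644 and 614 CPM in controls and 166, 186 and 207 CPM with MK5 siRNA. The groups were far apart, and the log2 fold change of −1.77 ± 0.12 (SE; edgeR adjusted p = 0.000209) was close to that of TUBB4B. MAPRE1, which encodes the plus-end protein EB1, and TACC3, a spindle protein, fell by 1.21 ± 0.11 (SE; edgeR adjusted p = 0.000419) and 1.15 ± 0.10 (SE; edgeR adjusted p = 0.000419). CLIP2, a plus-end linker gene, rose by 1.36 ± 0.29 (SE; edgeR adjusted p = 0.00862). The count of 10 became 6 without MK5 siRNA replicate 3, 16 without control replicate 1 and 18 without replicate 1 of both groups, of 21 then tested. These were 28.6%, 76.2% and 85.7%, when 31.2%, 64.4% and 75.8% of all tested genes passed.

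Of 18 structural microtubule-associated proteins, 4 fell and 5 rose, or 50% against 46.2% of all tested genes, with a median of 0.07. MAPT and MAP7, genes of a neuronal and an epithelial microtubule-binding protein, rose by 2.51 ± 0.35 (SE; edgeR adjusted p = 0.00172) and 2.36 ± 0.28 (SE; edgeR adjusted p = 0.0010) from 9 to 15 counts per control library. EML1, a microtubule-binding protein of the EMAP family, rose from 12.5 ± 3.53 to 38.0 ± 2.96 CPM (SD, n = 3; 1.60 ± 0.21 SE, edgeR adjusted p = 0.00136). MAP7D3, a relative of MAP7, fell by 1.52 ± 0.18 (SE; edgeR adjusted p = 0.000959). Without replicate 1 of both groups 14 of the 18 passed, or 77.8%, when 75.8% of all tested genes did.

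**Figure D4:**
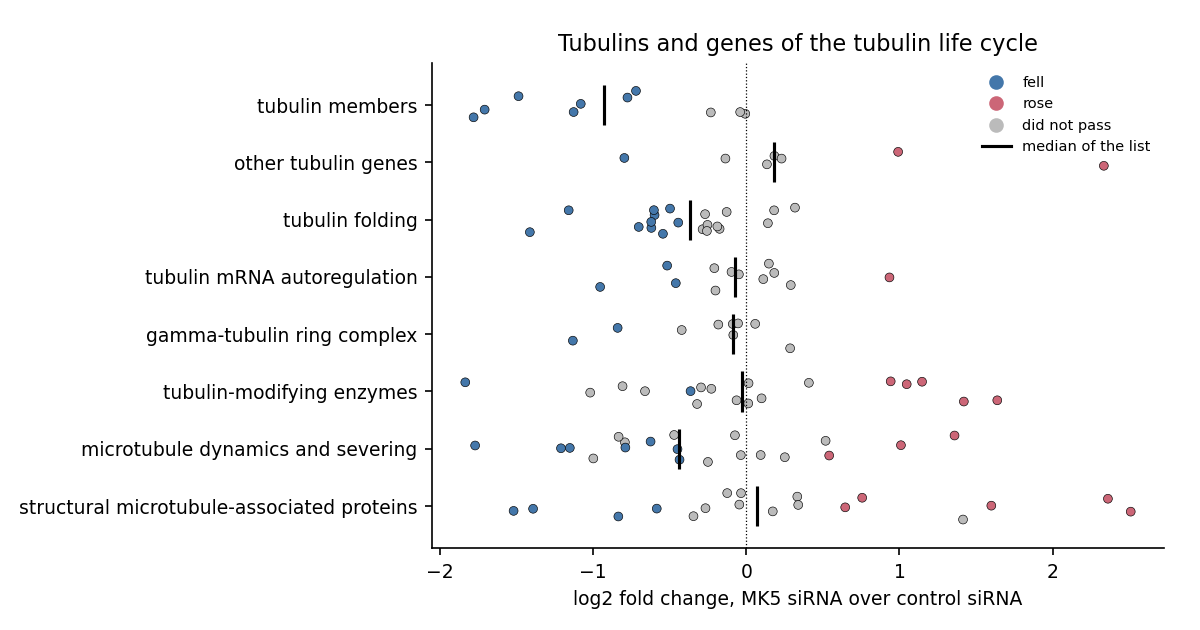
Log2 fold change (MK5 siRNA over control siRNA) of every tested gene in the 10 tubulins and the 7 lists around them, with 1 point per gene and a bar at the median of each list. Medians run from −0.93 in the tubulins and −0.44 in microtubule dynamics to 0.18 in the further tubulin genes.

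Many genes followed the pattern of the tubulins over the 6 libraries. The 5 genes outside the tubulin lists whose log2(CPM + 0.5) was most like the log2 of the summed tubulin level were SNRNP40, ACER3, SRSF7, RBBP7 and NAA15. Pearson's r was 0.9997 for SNRNP40 and 0.999 for NAA15 over the 6 libraries. These r values are over points that share the 2 groups and the libraries, and 1115 of 10470 genes compared had an r above 0.95.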

How the data were processed

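Total RNA of 6 libraries was sequenced after TruSeq library synthesis, per the labels' protocols. The deposited table holds whole-number counts per gene made by the authors, although its name speaks of CPM. Tools listed in the submitters' processing notes are HTSeq 0.9.1, TopHat2 2.1.1, Trimmomatic 0.36 and FastQC, with the build GRCh37. The sources used here give no order, settings, strand, read length or annotation release. No column belonged to other samples.

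In R 4.3.3, edgeR 4.0.16 (filterByExpr with a least count of 10 and least total of 15, TMM scaling, quasi-likelihood test without a block) compared the groups, two-sided, with Benjamini-Hochberg adjustment over 13431 genes. The code was also run on simulated counts. These had less spread between replicates than the real libraries, so that run does not give error rates here. CPM used TMM-scaled totals, pair changes used log2(CPM + 0.5), and an SE is the size of the log2 fold change over the square root of F. Lengths and start codons came from GENCODE 29 transcripts and promoters from RefSeq, both on GRCh38. They were matched by identifier or symbol. Alternatives were limma-voom 3.58.1, DESeq2 1.42.0, other scalings and filters, the block and leaving out libraries. Different transcript lengths and a sum without TUBB were chosen after seeing the data.

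The members and lists were chosen with earlier results of these data known. Named are the members, MAPKAPK5, up to 4 passing genes of each list with the largest changes, for markers those at 0 and the highest, and the 5 genes most alike. Replicates are biologic per the series' design text. If they were not separate cultures, p-values measure technical spread only. Across genes, the deviations of same-numbered libraries from their group means had correlations of 0.258, 0.206 and 0.248. Changes within same-numbered pairs were therefore given, and an alternative fit used the replicate number as a block. The main test used no pairing. A pairing by number was read from the data alone. Replicates 2 and 3 also correlated across numbers (0.151 and 0.182), so for them it is not settled.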

Additional observations from a re-analysis of the deposited data

How the results depend on the processing

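TUBA1A, TUBA1B, TUBA1C, TUBB4B and TUBB6 kept their direction and passed under every alternative run, with log2 fold changes from −1.98 to −0.98. With the replicate number as a block, 7 tubulins, 45 genes of the surrounding lists and 6359 genes in all passed; of the genes named from the fit, the block changed only the call of TUBE1. The estimate of TUBA4A turned positive with scaling by library totals alone (0.090) and with a stricter filter (0.0025), and that of TUBB3 with scaling by library totals alone (0.060). Leaving out libraries, TUBA4A ranged from −0.15 to 0.067 and TUBB3 from −0.30 to 0.18. Over the same omissions 5 to 8 of the 10 tubulins passed, 31 to 80 genes of the surrounding lists and 4167 to 10372 of all genes, against 6206. The 8 were without replicate 1 of both groups, when 75.8% of all tested genes passed (5177 of 13690 lower). The 5 were without MK5 siRNA replicate 2 or 3, when 30.5% and 31.2% passed (2103 of 13677 and 2162 of 13676 lower). Of 26 genes named around the tubulins, MAPKAPK5 included, 20 passed under all alternatives, and TUBAL3 passed under each but the stricter filter, which removed it. The log2 ratio of the summed level was −1.08, ranged from −1.17 to −0.90 without single libraries, and was −1.41 without TUBB. Precision was limited by 3 libraries per group and, for TUBB3, by counts under 100. Causes were not tested.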

Other observations

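Within the controls the tubulins did not deviate together. Relative to the mean of control replicates 2 and 3, control replicate 1 had a log2 level higher by 0.82 for TUBB4B, 0.65 for TUBG1, 0.59 for TUBB and 0.58 for TUBA1B. It was near theirs for TUBA1C (0.02) and TUBA4A (−0.08), and lower for TUBA1A (−0.27) and TUBB3 (−0.72). With MK5 siRNA the same difference was 0.02 for TUBB4B and 0.01 for TUBG1, and 0.33 for TUBA1A. TUBB3 was lower in replicate 1 of both groups, by −0.72 and −0.63.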
